A study of Homo sapiens with 38 samples.

Results

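The genes for the proteins of the cytosolic ribosome were followed through RNA-seq counts of human neuroblastoma cell lines. Members were all rows whose symbol begins with RPL or RPS followed by a number and at most a closing A, X or L, plus RPLP0, RPLP1, RPLP2 and RPSA. This gave 81 genes among the 49070 listed in all 38 count files, 49 for the large subunit and 32 for the small subunit. RPS10L matched the same pattern in the BE2C files only, at 8 to 29 counts per library, and was left out.

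The ribosome is built from a large and a small subunit, each an assembly of ribosomal RNA and proteins that must be supplied in matched amounts. Most messenger RNAs for these proteins begin with a C followed by an unbroken run of pyrimidines, the terminal oligopyrimidine (TOP) tract, through which the mTOR pathway and the RNA binding protein LARP1 control their translation and stability. Several members also act outside the ribosome: RPL5 and RPL11 bind MDM2 and so stabilise p53, and MYC proteins, which drive many neuroblastomas, are known to raise transcription of the whole group.

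BE2C, a MYCN-amplified line, had received GSK-J4, which inhibits KDM6 histone demethylases, at 2.5 μM for 0 h, 24 h or 48 h (2 libraries each), or transfected for 72 h with the control siRNA siCtrl (2 libraries) or with 1 of 3 siRNAs against KDM6B named N1, N2 and N33 (1 library each). CHLA15 and CHLA20 had received the CDK4/6 inhibitor palbociclib at 300 nM, and NB1643 and NB1691 at 3 μM, for 72 h, each beside an untreated control of the same line (2 libraries per line and condition). Every BE2C library was the sum of 2 deposited files, so that 27 libraries stood behind the 38 files. Nothing states that libraries of a group came from separate cultures, so p-values measure the spread between these libraries, which may be technical.

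Depth ran from 36186567 to 93011010 gene counts per library, at which 3 counts amount to at most 0.0829 CPM, counts scaled to a library size of 1e+06; such floors cover counting error only. All 10 markers of noradrenergic neuroblastoma exceeded 1 CPM in every BE2C, CHLA15, CHLA20 and NB1643 library. NB1691 stood apart from its label: the summed level of these markers was 674 to 1170 CPM against 3000 to 5700 CPM in the other 3 lines of that experiment, and that of 6 fibroblast markers 16300 to 22000 CPM against 54.4 to 580 CPM. Nearly all of the latter was COL1A1 (14600 to 19800 CPM), while the collagens COL1A2 (0.964 to 1.76 CPM) and COL3A1 (32.9 to 46.2 CPM) were near their levels in CHLA15 and CHLA20. Endothelial markers summed to 81.6 to 107 CPM in NB1691 and at most 2.59 CPM in the other 3 lines, and leukocyte markers to 20.8 to 21.3 CPM and at most 0.644 CPM. Results across lines, and those of the other lines that share a fit with NB1691, are therefore also given without its libraries, a setting chosen after the data were seen. KDM6B was not lower in the libraries labelled siKDM6B, where N1, N2 and N33 read 8.98, 7.11 and 8.25 CPM, than in the siCtrl libraries, which read 6.47 and 8.76 CPM, so these libraries are referred to by their labels.

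The sequences around the annotated start of the messenger RNA are shown for the members on which the results below turn, because this short stretch holds the TOP tract that the group shares and the rule did not use. They run from 10 bases before the start to 20 bases from it on, 5′ to 3′, in GRCh38.p14 from RefSeq, with the nearest run of at least 5 pyrimidines that opens with C in capitals.
RPL39 (chrX:119791611-119791640, minus strand): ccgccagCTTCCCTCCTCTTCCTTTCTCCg
RPS3A (chr4:151099618-151099647, plus strand): cccacttccgCCCTTTTggctctctgacca
RPL12 (chr9:127451387-127451416, minus strand): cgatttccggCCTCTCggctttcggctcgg
RPL34 (chr4:108620566-108620595, plus strand): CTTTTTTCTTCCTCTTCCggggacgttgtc
RPS24 (chr10:78033853-78033882, plus strand): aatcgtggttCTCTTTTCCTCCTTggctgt
RPL35A (chr3:197950180-197950209, plus strand): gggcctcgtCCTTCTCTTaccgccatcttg
RPLP0 (chr12:120201092-120201121, minus strand): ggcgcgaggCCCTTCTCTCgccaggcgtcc
RPS27 (chr1:153990752-153990781, plus strand): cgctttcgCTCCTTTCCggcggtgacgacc
RPS27L (chr15:63157458-63157487, minus strand): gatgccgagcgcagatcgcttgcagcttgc
RPS4X (chrX:72277229-72277258, minus strand): ctccagccccaatttctacgcgcaccggaa
RPL15 (chr3:23916535-23916564, plus strand): tggggcctgctggaggagcttcacgcagtc

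The last 3, of RPS27L, the paralog of RPS27, of RPS4X and of RPL15, held no such tract, and neither did those of RPL6, RPL10L, RPL13, RPL17, RPL27, RPS27A and RPS29. This holds for the annotated start only, since counts per gene do not show which start these cells used. Start windows were found for 64 of the 81 members, and 54 of them (84.4%) held a tract beginning within 10 bases of the start, against 32.5% of all 35116 start windows of the same length. Reading from the start base itself, a C followed by at least 4 more pyrimidines, whether or not the run also reached further upstream, was found in 65.6% of members and 4.07% of all windows. The shares were alike in the large (64.1%) and small (68.0%) subunit, while 7.25% of 69 mitochondrial ribosomal protein genes had one. The letters CACGTG, an E-box read the same on either strand, occurred in the 300 bases around the start of 4.69% of members and 7.26% of all windows.

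Members took between 5.85% and 14.7% of all gene counts, with a median of 7.99% over the 27 libraries. The 10 most abundant members of a library held 28.3% to 32.2% of its member counts, and no member held more than 5.64%. Per kilobase of canonical transcript, levels among the highest in untreated BE2C cells (mean of 2 libraries at 0 h) were those of RPS18 at 3650 CPM per kb, RPL7A at 3302, RPS27 at 3265 and RPS24 at 2839 CPM per kb. RPLP0, which anchors the acidic stalk of the large subunit, was at 2827 CPM per kb, RPL6 at 2466, RPS2 at 2464, RPS7 at 2445 and RPL19 at 2323 CPM per kb. The median of the 81 members was 965 CPM per kb, and 10 lay under 100 CPM per kb.

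Some members had very low counts. RPL10L, a paralog known from testis, was at 0 to 2 counts in every BE2C library, and RPL3L, a paralog known from muscle, at 2 to 18. RPS10, RPL17 and RPL26 shared 84.0%, 96.9% and 65.3% of their canonical exonic bases in GRCh37 with another gene on the same strand, and RPL36A shared 43.8% with a read-through gene; their levels are uncertain, because counting by overlap can split or drop reads there. Reads that fit more than 1 place were not counted, so the levels of members with near-identical pseudogenes are uncertain, and symbols of such pseudogenes took only 0.0567% to 0.15% of counts.

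**Figure D1:**
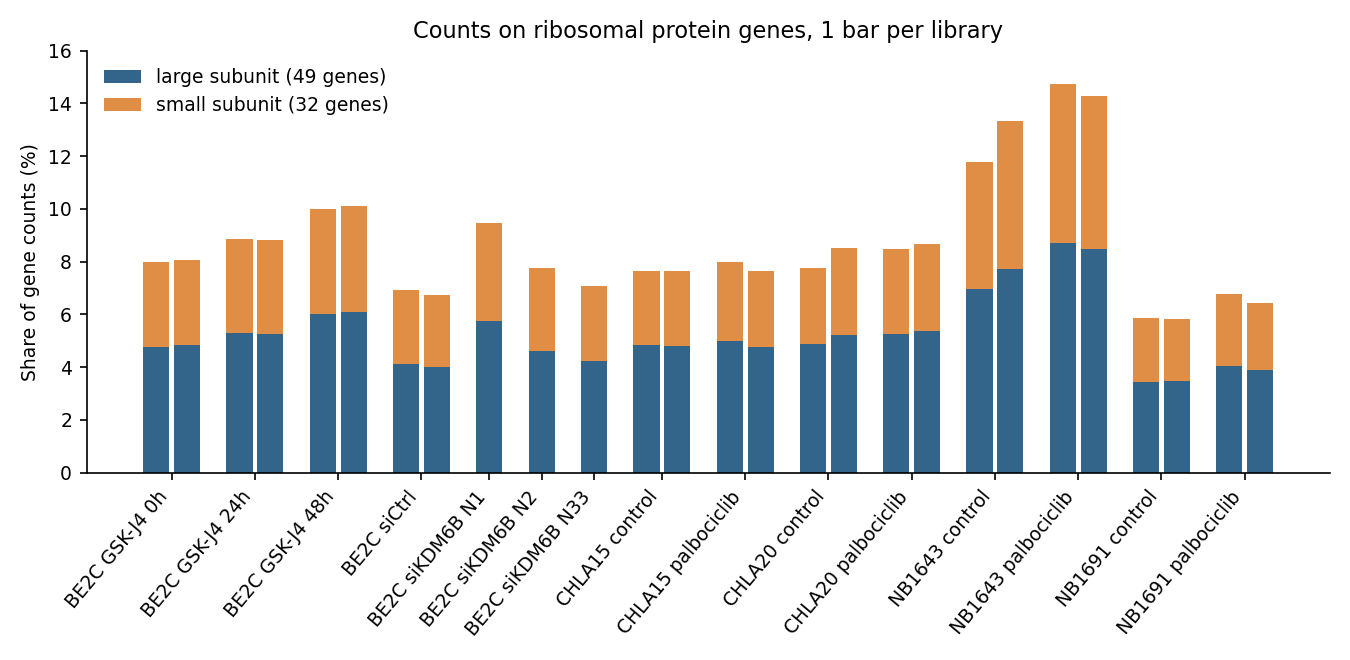
Share of gene counts (%) on the 49 large-subunit and 32 small-subunit genes, 1 stacked bar per library, grouped by line and treatment. The share rises from about 8% to 10% over 48 h of GSK-J4, lies between 6.75% and 9.49% in the siRNA experiment, and is highest in NB1643 and lowest in NB1691.

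Most members were higher in BE2C cells after GSK-J4, and more so at 48 h than at 24 h. The labels give no untreated library at 24 h or 48 h, so GSK-J4 and time in culture cannot be told apart. The share of gene counts on members was 7.99% and 8.08% at 0 h, 8.87% and 8.83% at 24 h, and 10.0% and 10.1% at 48 h. Libraries of the 3 times did not overlap, and the mean rose by 0.815 percentage points at 24 h and 2.04 percentage points at 48 h, with pooled SDs of 0.0509 and 0.069 (n = 2 per time). Both subunits rose together: the ratio of large- to small-subunit counts was 1.49 ± 0.00641 at 0 h, 1.48 ± 0.003 at 24 h and 1.505 ± 0.00334 at 48 h (SD, n = 2). Such shares are relative to all other RNA in the library, and with bulk samples fewer cells of a type and less RNA per cell cannot be told apart.

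By edgeR's quasi-likelihood test with Benjamini-Hochberg adjustment over all genes, 68 of 80 tested members were higher at 48 h and 6 lower at an adjusted p under 0.05. Of all 17734 genes tested 37.1% were higher and 34.4% lower. The median log2 fold change of the members was 0.26, against 0.05 for all genes. At 24 h 47 members were higher and 7 lower, with 27.3% of all genes higher and 28% lower, and a median of 0.11 for members and 0.01 for all genes. From 24 h to 48 h 62 members rose and 1, RPL39L, fell, while 25.9% of all genes rose and 28% fell. At 48 h the higher members were 41 of 48 of the large and 27 of 32 of the small subunit, with medians of 0.26 and 0.25. Scaling by upper quartiles moved the 48 h median of all genes to 0.16 and that of the members to 0.37.

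RPL39, a small protein at the exit of the peptide tunnel, had the largest rise among well-counted members: 406 and 402 CPM at 0 h, 491 and 482 CPM at 24 h, and 633 and 631 CPM at 48 h. The times did not overlap, and its log2 fold change at 48 h was 0.65 (SE 0.027, edgeR adjusted p = 1.66e-25). RPS3A, a small-subunit protein, went from 1731 and 1708 CPM at 0 h to 2523 and 2626 CPM at 48 h (log2 fold change 0.58, SE 0.027). RPL37, a zinc finger protein of the large subunit, went from 1407 and 1388 CPM to 2079 and 2077 CPM (0.57). RPL12, RPL3 and RPL10A, all of the large subunit, followed with 0.55, 0.55 and 0.50. RPL3L had a larger fitted value, 1.93, on 2 counts in each 0 h library and 12 and 13 at 48 h. At 24 h the 3 largest called rises were those of RPL39L (0.29), RPL3 (0.28) and RPL39 (0.27). RPL39L, the paralog of RPL39 known from testis, did not keep it: its log2 fold change at 48 h was 0.02 (adjusted p = 0.84).

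RPL5 and RPL11, which bind MDM2 together with 5S ribosomal RNA, rose at 48 h by log2 0.31 and 0.43, and RPS6, the small-subunit protein that S6 kinase phosphorylates, by 0.42. RPL22, a large-subunit protein often mutated in tumours, rose by 0.19. The stalk was uneven: RPLP0 rose by 0.16 and RPLP1 by 0.35, while RPLP2 read 472 and 478 CPM at 0 h and 485 and 482 CPM at 48 h (0.03, adjusted p = 0.373). RPSA, also known as the laminin receptor precursor, read 1331 and 1322 CPM at 0 h and 1274 and 1319 CPM at 48 h, and its adjusted p was 0.259.

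The members called lower at 48 h were RPS10, RPL36A, RPS26, RPS27L, RPL35 and RPS15. RPS10 and RPL36A fell by log2 0.65 and 0.64, but share exons with other genes and were under 10 CPM. RPS26, a protein at the messenger RNA exit of the small subunit, was at 306 and 312 CPM at 0 h and at 240 and 234 CPM at 48 h, so that the times did not overlap (log2 fold change -0.38, SE 0.031, adjusted p = 5.63e-15). RPS27L, a p53-inducible paralog of RPS27, was at 34.4 and 30.4 CPM at 0 h and 28.9 and 27.6 CPM at 48 h (-0.20, adjusted p = 0.0015), and RPS27 itself rose by 0.20. RPL35 and RPS15 differed by -0.16 and -0.14.

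Other parts of the translation machinery did not all move this way. Of 19 other genes with TOP messenger RNAs, such as elongation factors, 15 were higher and 2 lower at 48 h, with a median log2 fold change of 0.27. Among 78 mitochondrial ribosomal protein genes 5 were higher and 63 lower, with a median of -0.50. Of 11 genes of the mTOR pathway and its TOP arm 4 were higher and 6 lower. Other values moved over the same times. Of the 10 neuroblastoma markers 1 was higher and 9 were lower at 48 h. The summed level of 6 fibroblast markers was 15.8 and 15.5 CPM at 0 h, 6.70 and 6.81 CPM at 24 h and 7.45 and 7.75 CPM at 48 h, while endothelial and leukocyte markers summed to at most 2.83 and 0.591 CPM in any of these libraries. Reads on no gene numbered 13.4 and 13.2 per 100 gene counts at 0 h, 13.8 and 13.4 at 24 h, and 17.1 and 16.6 at 48 h. The part of these in the rise of the members was not tested.

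**Figure D2:**
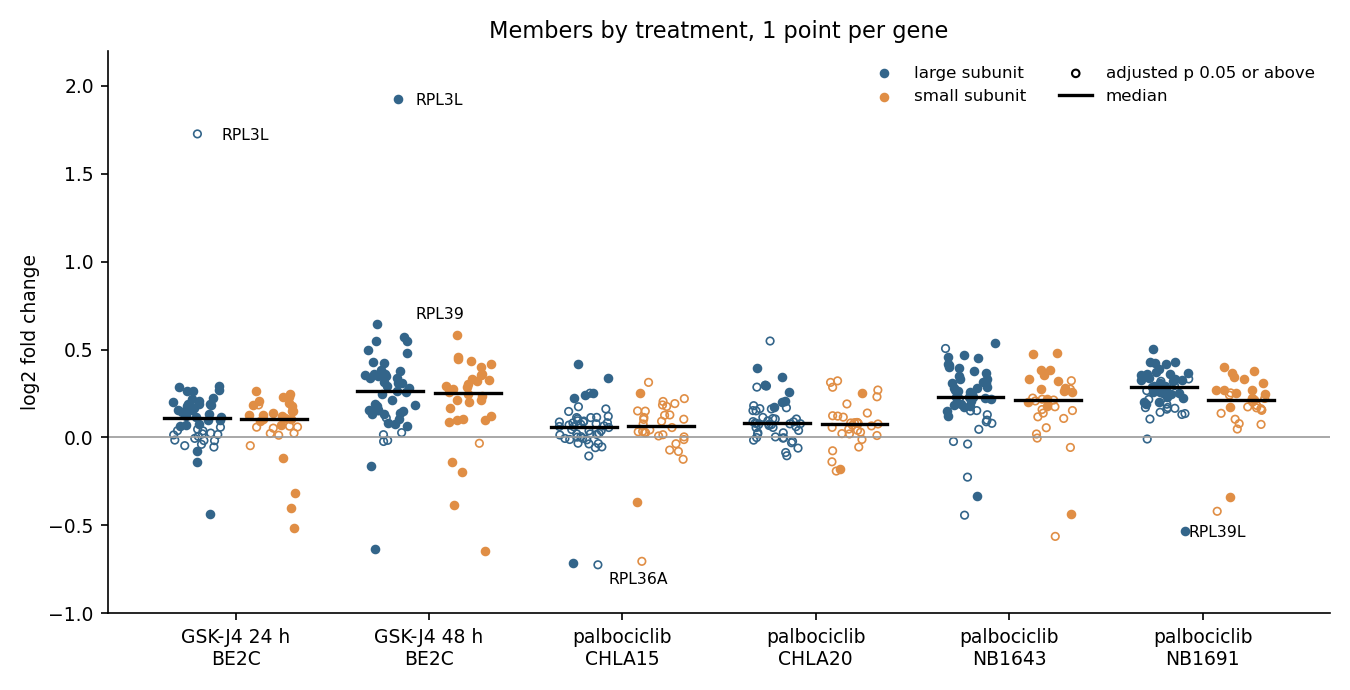
Log2 fold change of each member (1 point per gene, large and small subunit side by side) for GSK-J4 against 0 h in BE2C and palbociclib against control in 4 lines; filled points have an edgeR adjusted p under 0.05 and bars are medians. Medians lie near 0.26 at 48 h of GSK-J4, 0.22 in NB1643 and 0.25 in NB1691, and at 0.06 and 0.08 in CHLA15 and CHLA20; the highest points at 24 h and 48 h are those of RPL3L, on 2 to 13 counts per library.

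With palbociclib 49 and 46 members were called higher in NB1643 and NB1691, where the dose was 3 μM, and 6 and 8 in CHLA15 and CHLA20, where it was 300 nM. These counts come from 1 fit of all 4 lines, and with each line fitted alone their order changed, to 34 in CHLA15, 8 in CHLA20, 29 in NB1643 and 72 in NB1691. Calls over all genes are not set beside the latter counts, so the changed order may not be particular to the members. Line and dose cannot be told apart. In NB1643 the share of counts was 11.8% and 13.3% in control libraries and 14.7% and 14.3% with palbociclib. In NB1691 it was 5.85% and 5.85% in controls and 6.77% and 6.45% with palbociclib. Treated and control libraries did not overlap in either, and the mean differences were 1.96 and 0.764 percentage points (pooled SD 0.811 and 0.161). In CHLA15 the shares were 7.65% and 7.67% in controls and 7.99% and 7.65% with palbociclib, and in CHLA20 they were 7.78% and 8.50% against 8.50% and 8.69%. The CHLA groups overlapped, with mean differences of 0.162 and 0.456 percentage points.

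In NB1643 49 of 81 members were called higher and 2 lower, and 20.3% of all genes tested were higher and 19.7% lower. In NB1691 46 were higher and 2 lower, with 17.4% and 15.5% of all genes. The medians over members were 0.22 and 0.25, against 0.00 and 0.02 for all genes. In CHLA15 6 members were higher and 2 lower, with 14.2% and 15.6% of all genes, and in CHLA20 8 were higher and 1 lower, with 13.7% and 15.9%. Of the members called higher in NB1643 and in NB1691, 36 were shared, 73.5% and 78.3% of the lists. Lists this long out of 81 members would share many by themselves, and the sharing over all genes is not given. The lines have separate control libraries.

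The counts in the CHLA lines and NB lines depended on which libraries entered. In CHLA20 control replicate 1 read lower than control replicate 2 for many members, and without replicate 2 there were 29 higher and 0 lower, without replicate 1 3 and 3, and without palbociclib replicate 1 or 2 there were 5 or 2 higher and 0 lower. CHLA15 gave 3 higher without palbociclib replicate 1 or without control replicate 2, NB1643 24 without control replicate 1 and 29 without palbociclib replicate 1, and NB1691 30 without palbociclib replicate 1. With the NB1691 libraries left out of the fit 5 members were higher in CHLA15, 7 in CHLA20 and 37 in NB1643. Calls over all genes are not given for these fits or for the lines fitted alone. A change in these counts can therefore not be told from a change in calls over all genes.

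The difference between the lines at the higher and the lower dose was tested as the mean effect in NB1643 and NB1691 minus that in CHLA15 and CHLA20, a contrast chosen after the data were seen. By edgeR 30 of 81 members had a larger log2 fold change in the NB lines and 1, RPL39L, a smaller one, where 13.6% and 12.8% of all genes did. The median difference was 0.16 for members and 0.02 for all genes. For NB1643 alone against the CHLA lines 18 members were called larger, for NB1691 alone 22, and for NB1643 with the NB1691 libraries left out of the fit 6 (RPL3, RPL4, RPL30, RPL35A, RPL37 and RPS29), where 13%, 14% and 11.1% of all genes were. RPL3, which lies near the peptidyl transferase centre, was at 2487 and 2398 CPM in CHLA15 controls and 2472 and 2397 CPM with palbociclib, and at 4708 and 4975 CPM against 6273 and 6225 CPM in NB1643. The CHLA15 groups overlapped and the NB1643 groups did not, and the difference of its effect between NB and CHLA lines was 0.30 (SE 0.044, adjusted p = 3.44e-05). RPL13A and RPL37 had differences of 0.34 and 0.32, and RPL39L -0.55. For NB1643 alone RPL13A was not called. RPL39, at -0.01 (SE 0.11), and RPS4X, at 0.10 (SE 0.064), were not called.

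RPL34, RPL37A, RPL39 and RPS4X were called higher in all 4 lines, and also with GSK-J4 at 48 h. The matching share of all genes is not given. RPL34, a large-subunit protein, was at 303 and 294 CPM in CHLA15 controls and 362 and 343 CPM with palbociclib, and at 313 and 342 CPM against 399 and 407 CPM in CHLA20. In NB1643 it was at 478 and 580 CPM against 774 and 762 CPM, and in NB1691 at 393 and 397 CPM against 523 and 492 CPM. Treated libraries lay above the controls in every line, and the log2 fold changes were 0.24, 0.30, 0.54 and 0.36. RPL39 had log2 fold changes of 0.42, 0.40, 0.46 and 0.34 in CHLA15, CHLA20, NB1643 and NB1691, and RPL37A, a zinc finger protein, 0.25, 0.26, 0.41 and 0.36. RPS4X, an X-linked protein of the small subunit, had 0.25, 0.25, 0.38 and 0.33. RPL27 was called in CHLA15 (0.34), CHLA20 (0.34) and NB1643 (0.45), and in NB1691 its value of 0.30 had an adjusted p of 0.0756.

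The largest called rise in NB1643 was that of RPL34, followed by RPS29 (log2 fold change 0.48) and RPS15A (0.48). In NB1691 the largest rises were those of RPL13A (0.50), known for its part in silencing inflammatory messenger RNAs, RPL15 (0.43) and RPL31 (0.43). RPL13A stood at 1411 and 1435 CPM in NB1691 controls and at 2083 and 1952 CPM with palbociclib, so that the groups did not overlap. In a test of the difference between the NB lines as an interaction, RPL15 (0.24 larger in NB1691 than in NB1643, SE 0.073, edgeR adjusted p = 0.0217) and RPLP0 (0.19 larger, adjusted p = 0.0482) were the 2 members called, while 22% of all genes were called. The other leading members of either line, RPL34, RPS29, RPS15A, RPL13A and RPL31, were not called in that test. Between the CHLA lines 1 member was called, RPL36A, and 2.02% of all genes. RPL36A was at 3.28 and 3.76 CPM in CHLA15 controls and 1.96 and 2.31 CPM with palbociclib, and at 2.67 and 2.08 CPM against 3.09 and 2.79 CPM in CHLA20.

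The members called lower after palbociclib in at least 1 line were RPS27L, RPL39L, RPL36A and RPSA. RPS27L was lower in CHLA15 (log2 fold change -0.37), NB1643 (-0.44) and NB1691 (-0.34), and in CHLA20 its value was -0.19 with an adjusted p of 0.0887. In NB1691 it read 205 and 195 CPM in controls and 162 and 154 CPM with palbociclib, with no overlap. RPL39L was lower in NB1643 (-0.33) and NB1691 (-0.53) and higher in CHLA15 (0.23), against the rise of RPL39 in all 4 lines. RPSA was lower in CHLA20 (-0.18), where 1693 and 1895 CPM in controls stood against 1575 and 1591 CPM, and higher in NB1691 (0.18), while in CHLA15 RPL36A was the other member called lower (-0.72).

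Among 78 mitochondrial ribosomal protein genes 7 were higher and 28 lower in NB1643, 2 and 28 in NB1691, 2 and 14 in CHLA15, and 1 and 31 in CHLA20. The 19 other TOP genes were called higher in 4 and lower in 6 cases in NB1643, 8 and 3 in NB1691, 2 and 11 in CHLA15, and 1 and 9 in CHLA20. Neuroblastoma markers were higher in 8 of 10 cases in NB1643, 6 in NB1691, 3 in CHLA15 and 3 in CHLA20, and lower in 3 in CHLA15. The summed level of the 6 fibroblast markers was 131 and 133 CPM in NB1643 controls and 54.4 and 57.1 CPM with palbociclib, and 16600 and 16300 CPM against 21200 and 22000 CPM in NB1691. It was 568 and 580 CPM against 424 and 441 CPM in CHLA15, and 501 and 494 CPM against 359 and 370 CPM in CHLA20. Thus it was lower with palbociclib in NB1643 and both CHLA lines and higher in NB1691, with no overlap in any line. Endothelial markers summed to 82.2 and 81.6 CPM in NB1691 controls and 106 and 107 CPM with palbociclib. The part of these markers in the results was not tested.

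**Figure D3:**
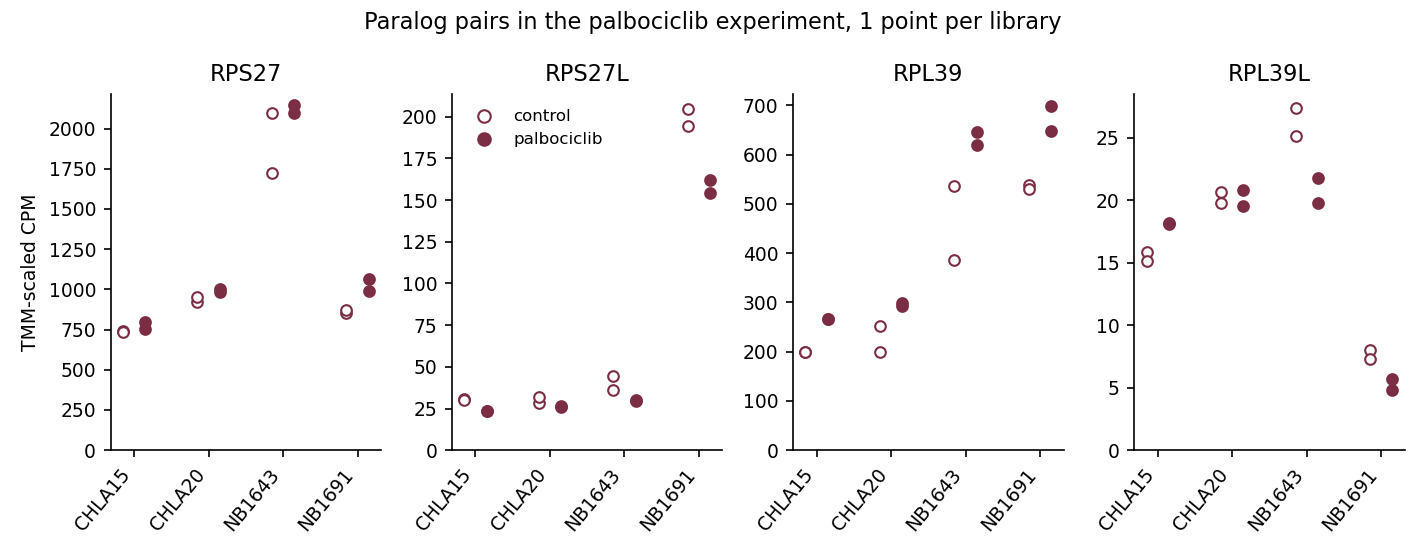
Level (CPM after TMM scaling, linear axes from 0) of RPS27, RPS27L, RPL39 and RPL39L in each library of the palbociclib experiment, open for control and filled for palbociclib. RPS27L is highest in NB1691, where control libraries read 205 and 195 CPM and treated ones 162 and 154 CPM, and RPL39L is lowest there.

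Taken as a group of 3 libraries, the siRNAs against KDM6B gave no called member: 0 of 79 members were higher and 0 lower, with 0% of all genes tested called higher and 0% lower by edgeR, whose smallest adjusted p was 0.279. At an unadjusted p under 0.05 there were 1615 genes, 9.24% of those tested, and 0 members; DESeq2 and limma-voom also called 0 members. Members were positive in 70 of 79 cases, with a median log2 fold change of 0.21 against 0.04 for all genes, and without the N1 library the median was 0.05. The coefficient of variation common to all genes was 0.35 in this fit, against 0.0219 with GSK-J4.

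The 3 siRNA libraries differed from each other in the level of the members. The share of counts on members was 6.94% and 6.75% with siCtrl, 9.49% with N1, 7.74% with N2 and 7.07% with N33. For a view of each, all 11 BE2C libraries were fitted together with each siRNA as its own group, a fit chosen after the data were seen, in which the lone library of an siRNA is assumed to vary like the pairs of the other groups and has no replicate check. With N1 74 of 80 members were called higher and 4 (RPL39L, RPS10, RPL36 and RPS21) lower, where 25.2% and 27.2% of all genes were. With N2 57 were higher and 6 lower (all genes 23.7% and 24.7%), and with N33 16 were higher and 34 lower (all genes 30.8% and 29.7%). Medians were 0.45, 0.20 and -0.08. The 3 comparisons share the siCtrl libraries.

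Other values differed between these libraries, not always in the order of the shares. The summed level of the 10 neuroblastoma markers was 2690 and 2810 CPM in siCtrl and 3620, 2420 and 1030 CPM in N1, N2 and N33, above siCtrl with N1 only. That of the 6 fibroblast markers was 93.2 and 86.7 CPM in siCtrl and 111, 101 and 207 CPM in N1, N2 and N33. Reads on no gene numbered 16.98 and 17.2 per 100 gene counts in siCtrl, 24.0 with N1, 22.8 with N2 and 17.1 with N33. The part of these in the result was not tested.

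**Figure D4:**
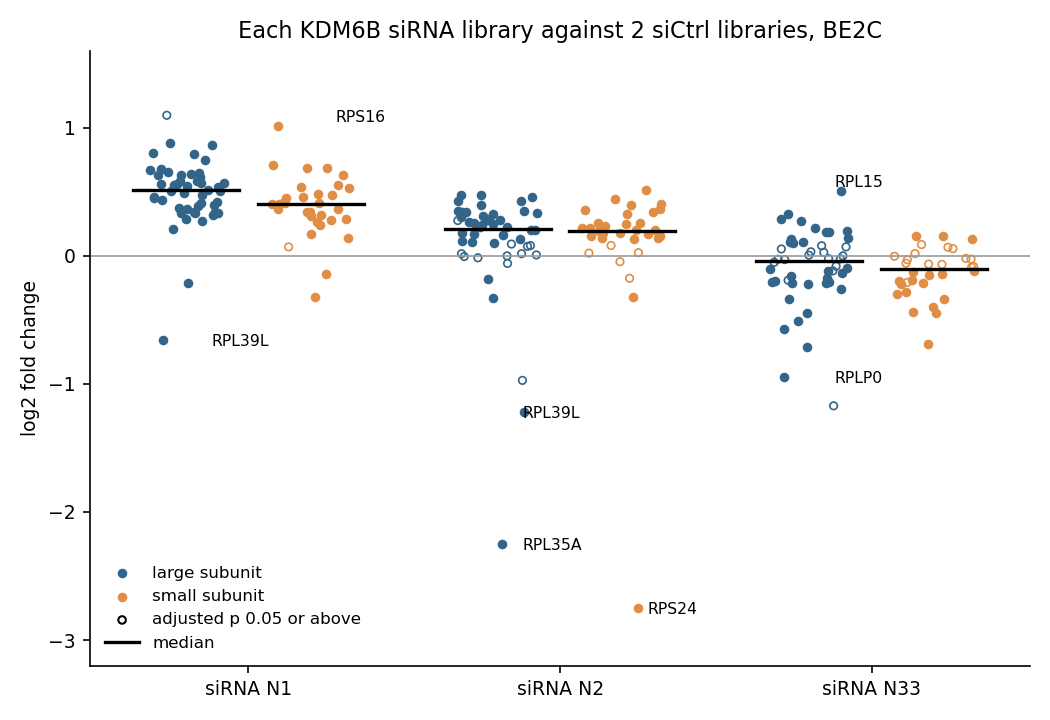
Log2 fold change of each member in the N1, N2 and N33 libraries against the 2 siCtrl libraries (1 point per gene, filled where the edgeR adjusted p is under 0.05, bars at medians). Most members lie above 0 with N1 and N2, while RPS24 and RPL35A stand far below the rest with N2 and RPLP0 is low with N33.

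In the N2 library 2 members stood far from the others. RPS24, a small-subunit protein mutated in Diamond-Blackfan anaemia (79793518 to 79816571 on chromosome 10, GRCh37), read 1262 and 1177 CPM in the siCtrl libraries and 1548, 181 and 1063 CPM in N1, N2 and N33. RPL35A, a large-subunit protein mutated in the same disease (197677061 to 197683481 on chromosome 3), read 762 and 718 CPM in siCtrl and 937, 156 and 776 CPM in N1, N2 and N33. Both were low with N2 only among these 5 libraries, with log2 fold changes of -2.75 (SE 0.051) and -2.25 (SE 0.048). Among 2164 genes with at least 100 CPM in siCtrl, 1 gene had a lower value than RPS24 and 7 a lower one than RPL35A. The 2 files of the N2 library read 188 and 189 CPM for RPS24 and 162 and 162 CPM for RPL35A before TMM scaling. They come from 1 library, so their agreement is no replicate check. In the windows printed above both read a C and at least 4 more pyrimidines from the start base on, and so does RPL34, whose run opens further upstream and which was higher in the same library (0.39). RPL39L (-1.22), RPL3 (-0.33) and RPS9 (-0.32) were the next lowest of the members called with N2.

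With N33 the lowest called member was RPLP0, at 1550 CPM against 3073 and 2907 CPM in siCtrl, while N1 and N2 read 3451 and 3159 CPM (log2 fold change -0.95, SE 0.041). RPL15 went the other way with N33, at 860 CPM against 618 and 594 CPM with siCtrl (0.51). With N1 the largest called rise was that of RPS16 (1.01), whose siCtrl libraries read 194 and 368 CPM and so were far apart, followed by RPL34 at 806 CPM against 452 and 424 CPM (0.88), and RPL39L was lowest (-0.66).

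Between untreated lines nearly every member differed, as did nearly every gene: 79 of 81 members were called by a test of any difference among the 4 lines, with 91.2% of all genes. NB1643 had the highest mean for 66 of 81 members and NB1691 the lowest for 41. Against the mean of the other 3 lines, a contrast chosen after the data were seen, 70 members were higher and 3 (RPS27L, RPL11 and RPL23) lower in NB1643, where 34.6% and 37% of all genes were, with a median of 0.65. Against CHLA15 and CHLA20 alone the median log2 ratio of mean CPM was also 0.65, and 73 members were positive. With the NB1691 libraries left out of the fit, 70 of 81 members were called by the test of any difference among 3 lines, with 72.2% of all genes. In that fit 69 members were higher and 3 (RPL11, RPL23 and RPL3L) lower in NB1643 than in the CHLA lines, where 36.4% and 36.1% of all genes were. RPS27L turned with the reference: it was -0.49 in NB1643 against all 3 other lines and 0.45 (adjusted p = 6.75e-05) against the CHLA lines. In NB1691 15 members were higher and 48 lower, where 44.7% and 35.7% of all genes were, with a median of -0.27.

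The balance of the subunits also differed between lines. The ratio of large- to small-subunit counts was 1.697 ± 0.0299 in CHLA15 controls, 1.64 ± 0.0831 in CHLA20, 1.42 ± 0.0534 in NB1643 and 1.45 ± 0.00807 in NB1691 (SD, n = 2). The CHLA controls lay above the NB controls without overlap, with 1.59 the lowest among the former and 1.46 the highest among the latter.

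The widest range over lines among well-counted members was that of RPS27L, 6.67-fold, with 205 and 195 CPM in NB1691 and means of 30.4 CPM in CHLA15, 29.99 in CHLA20 and 40.4 in NB1643. RPL39L ranged 3.42-fold, from 7.65 ± 0.558 CPM in NB1691 to 26.3 ± 1.63 CPM in NB1643. RPL3L and RPL10L, at 37 counts or fewer in any library, headed the range on the log scale together with RPS27L. RPL5 followed at 3086 and 3737 CPM in NB1643 against 1091 and 1084 CPM in CHLA15, 1092 and 1198 CPM in CHLA20, and 1225 and 1244 CPM in NB1691. RPSA, RPL39 and RPL14 were also among the 10 widest, ranging 3.10-, 2.68- and 2.60-fold. NB1643 had the highest level of these except RPL39, whose mean after TMM scaling was highest in NB1691 at 534 ± 5.79 CPM. RPL39 read 537 and 529 CPM in NB1691 controls and 387 and 536 CPM in NB1643 controls, so the 2 lines overlapped. The order of their means depends on the scaling, with TMM factors of 0.824 and 0.813 in NB1691 controls and 1.11 and 1.08 in NB1643 controls. Over CHLA15, CHLA20 and NB1643 alone, RPS27L ranged 1.35-fold and RPL39L 1.69-fold, while RPL5 ranged 3.14-fold, RPL39 2.32-fold, RPSA 2.03-fold and RPL14 1.70-fold.

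Members on the same chromosome arm did not share the excess in NB1643. The short arm of chromosome 1 of GRCh37 holds, among others, RPL22 (6245080 to 6269449), RPL11 (24018232 to 24023325) and RPL5 (93297570 to 93307481). In NB1643 against the other 3 lines RPL11 was lower by log2 0.34 and RPL22 read -0.11 (adjusted p = 0.0781), while RPL5 was higher by 1.56. Other tested genes within 1 Mb had medians of -0.85 around RPL22 (15 of 16 lower), -1.63 around RPL11 (27 of 28 lower) and 0.67 around RPL5 (2 of 15 lower). Along the arm, 93.2% of 133 tested genes between 20 and 30 Mb were lower in NB1643, and 25.6% of 86 between 80 and 100 Mb. Without NB1691 the values in NB1643 were -0.25 for RPL11, -0.13 for RPL22 (adjusted p = 0.0777) and 1.65 for RPL5, with neighbours at -1.35, -1.04 and 0.78.

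The same held across the genome as a description. Over the 70 members with at least 10 tested neighbours, Spearman's rho between the member's log2 ratio and its neighbours' median was 0.559 in NB1643 and 0.519 in NB1691; the points share libraries, and neighbours are shared by members that lie close together. The 22 members whose neighbours had a median under -0.5 in NB1643 had a median of 0.29 themselves, and the 23 whose neighbours were above 0 had 0.79. RPL23 (-0.20), with neighbours at -1.04, and RPL27 (-0.09), with neighbours at -0.79, both on chromosome 17, were among the 6 lowest members. Against the CHLA lines, without NB1691, rho was 0.73 over 68 members, the 23 with neighbours under -0.5 had a median of 0.20, and the 26 with neighbours above 0 had 0.86. RPL23 was then at -0.17 and RPL27 at 0.04.

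**Figure D5:**
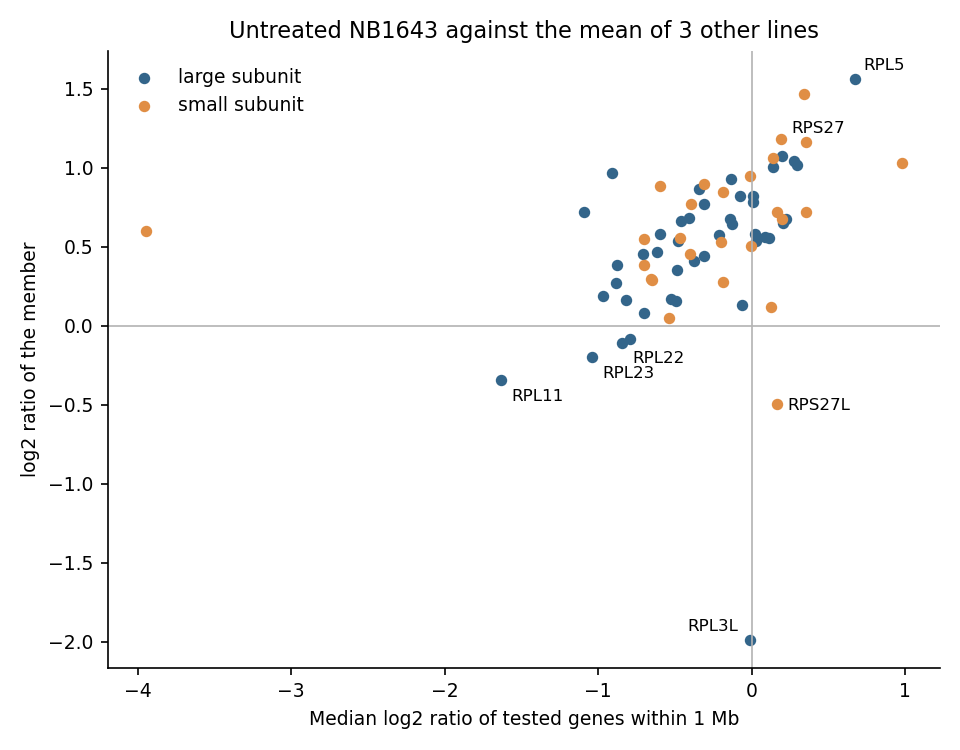
Log2 ratio of each of 70 members in untreated NB1643 against the mean of the 3 other lines (vertical) against the median log2 ratio of the other tested genes within 1 Mb (horizontal). RPL5 lies at 1.56 with neighbours above 0, and RPL11 at -0.34 with neighbours at -1.63.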

How the data were processed

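Total RNA had been sequenced as read pairs. The authors aligned them to GRCh37 with STAR 2.5.3a and counted pairs per gene with HTSeq, and the deposited values are whole-number counts by gene symbol without normalization. Files of 1 BE2C library were summed; the 2 files differed by a chi-square per degree of freedom of 1.48 to 1.65, and files of different replicates by 1.93 to 4.04. The palbociclib libraries were fitted apart from those of BE2C, because 50652 symbols are listed for BE2C and 50778 in the palbociclib tables. The GSK-J4 and siRNA libraries list the same symbols and were also fitted apart, except in the fit of all 11 BE2C libraries.

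Differential expression was tested in R 4.3.3 with edgeR 4.0.16 (TMM scaling, filterByExpr, two-sided quasi-likelihood F test, Benjamini-Hochberg adjustment over all genes tested, threshold 0.05). The common coefficient of variation was 0.0523 in the palbociclib fit. Shares and subunit ratios carry no test. The procedure was tested on simulated data. Alternatives were DESeq2 1.42.0, limma-voom (limma 3.58.1), other scalings and filters, each file as a sample, a replicate block, the compared groups alone, leaving out each library and, added after the data were seen, leaving NB1691 out.

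The members and gene lists were chosen with earlier results of these data known. Named were the 3 members with the highest and the 3 with the lowest log2 fold change among those called per comparison, the 10 with the widest range over untreated lines, the 10 highest per kilobase in untreated BE2C, members at 3 counts or fewer, paralog pairs and RPL5, RPL11, RPL22, RPS6, RPS4X, RPSA and RPLP0 to RPLP2. Beyond that rule RPL35A, RPS24, RPL15, RPL39L and others with single siRNAs, RPL23 members shared by all lines and those named for the difference between NB and CHLA lines were named after their values were seen. Positions are from GENCODE v44 lifted to GRCh37. Per kilobase levels use the annotated canonical transcript, which for RPL14, RPL27A, RPL28, RPL37 and RPS27L is over 4 kb and lowers them. Strandedness of the counting is not given in the sources used here.
Some genes named by this rule are not reported here.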

Additional observations from a re-analysis of the deposited data

Results flagged for a closer look

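The effect of palbociclib on 3 members differed between lines given the same dose by the interaction test. That test called 22% of all genes between the NB lines and 2.02% between the CHLA lines. RPL15 (difference in log2 fold change, NB1691 minus NB1643, 0.243) and RPLP0 (0.188) rose more in NB1691, with adjusted p of 0.0217 and 0.0482 by edgeR. RPL36A, which shares exons with a read-through gene, had a log2 fold change that was 1.01 higher in CHLA20 than in CHLA15 (edgeR adjusted p = 0.0362), on levels under 4 CPM. The mean effect of palbociclib in the NB lines minus that in the CHLA lines, a contrast in which line and dose cannot be told apart, was 0.34 for RPL13A, 0.325 for RPL37, 0.303 for RPL3 and -0.545 for RPL39L. For NB1643 alone against the CHLA lines RPL13A was not called, with the NB1691 libraries in the fit or left out. RPL37, RPL3 and RPL39L were called in either fit.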

How the results depend on the processing

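Of 178 alternative counts of called members, 153 stayed within 1.5 times the reported count. With GSK-J4 at 48 h, 3 members were lower under upper quartiles. For the siRNAs as a group 9 were higher with each file as a sample. In CHLA15 the higher count was 18 without a filter, 34 with the compared groups alone and 3 to 4 with a library left out, and the lower count 4 under library totals. In CHLA20 the higher count was 24 without a filter, 13 with the replicate block and 2 to 29 with a library left out, and the lower count was 2 without a filter, 0 with the compared groups alone and 0 to 3 with a library left out. With the compared groups alone 29 members were higher in NB1643 and 72 in NB1691; with a library left out the higher counts were 24 to 62 and 30 to 43, and the lower count in NB1643 2 to 5. The causes were not tested, and calls over all genes are not set beside these counts. The replicate block changed no other count by over 1.5 times; same-numbered libraries did not deviate together (correlations of -0.0628 to 0.0483), so the numbers were not taken to pair them. With each file as a sample, N1, N2 and N33 gave 75, 60 and 19 higher and 4, 7 and 41 lower members. Of 17288 genes tested, 10815, 10282 and 12150 were called in that fit. The 2 files of an siRNA come from 1 library, so these calls do not measure the spread between libraries. Adding pseudogenes moved each share difference by less than the spread between replicates. A denominator without mitochondrially encoded genes gave no other value, since no such symbol is listed.

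With 2 libraries per group, and 1 per siRNA, small changes of single members are not resolved. Members at 3 counts or fewer are at or below 0.0829 CPM, and counts cannot be split between members and the genes or copies that share their sequence.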
